A study of Mus musculus with 9 samples.

Results

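The 74 potassium channel genes described here are the genes whose symbol begins with Kcn and whose mean level over the 9 libraries was at least 1 CPM, a gene's counts scaled to a common library total. Antisense and pseudogene symbols and 2 symbols left out by name were not counted. Of 98 such symbols among the 40213 genes in the files, 93 were eligible by name and 19 of those lay below 1 CPM. The last eligible genes outside the threshold were Kcne4 at 0.945, Kcnq1 at 0.537 and Kcnk5 at 0.486 CPM, and the first inside it were Kcnj14 and Kcna5, both at 1.46 CPM, and Kcnh4 at 1.92 CPM. Kcnk16 and Kcnk18 had no counts in any library. The choice used mean level over all groups and no difference between groups.

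The libraries were made from ventral hippocampus of wild-type C57BL/6J male mice that were 8 weeks old when housed, with 3 mice in each of 3 groups. Sedentary controls (SED) had neither stress nor exercise. Stress-susceptible mice (SUS) had been restrained for 2 hours a day over 14 days and stayed sedentary, and the SUS_LE mice had the same restraint followed by 2 weeks of low-intensity treadmill running. The labels do not say how susceptibility was scored or when tissue was taken after the last session. There is no group of unstressed runners or of stressed mice that were not susceptible. Library totals ran from 14172344 to 15582304 counts, and all 9 libraries carry the same batch number. Every list of neuronal and glial markers was found, none of the markers being at 0 in every library. Libraries of 1 group differed most in summed markers of the choroid plexus, the tissue that secretes cerebrospinal fluid and borders the hippocampus, which ran from 3317 to 4883 CPM in SED, from 56.2 to 6876 in SUS and from 91.4 to 1665 in SUS_LE. The libraries SUS 1, SUS_LE 1 and SUS_LE 3 were lowest. SUS 2 was low in some smooth muscle and fibroblast markers. Myh11 was at 21.5 CPM beside 65.6 and 73.7 in the other SUS libraries, Acta2 at 19.3 beside 46.3 and 64.4, and Col1a2 at 8.03 beside 18.9 and 30.5. Some others were not lowest there: Rgs5 stood at 119 CPM in SUS 2 and 115 in SUS 1, Dcn at 78.7 and 67.1, and Igf2 at 145 and 125. Summed fibroblast markers were 251 CPM in SUS 2 and 256 in SUS 1. Summed pericyte and smooth muscle markers were 245 and 340.

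Potassium channels carry the outward current that ends action potentials, sets the resting potential and spaces spikes. Voltage-gated (Kv) channels open on depolarisation and are named by subfamily, calcium-activated BK and SK channels follow calcium entry, inward rectifiers (Kir) and tandem-pore (K2P) channels hold the membrane near rest, and accessory subunits (Kv beta, KChIP, KCNE) alter trafficking and gating. In hippocampus, Kv4 channels with KChIP subunits carry the dendritic A-type current, Kv7 channels the M-current, G protein-gated Kir3 (GIRK) channels a slow inhibition downstream of GABA-B and serotonin receptors, and Kir4.1 (Kcnj10) the potassium uptake of astrocytes. Tissue RNA was measured in bulk, so fewer cells of a type and less RNA per cell cannot be told apart in any value below.

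Promoter windows of 4 members are shown, and no comparison below uses the windows. Kcnj3 and Kcnj9 encode partner GIRK subunits with values in opposite directions. Kcnd2 followed Kcnj3 in rank, and Kcnh2 had the smallest p of any member between SUS_LE and SED. The 4 members were chosen after the values were seen. Each is the 250 bases before the transcription start, 5′ to 3′ on the gene's strand, from RefSeq (GRCm38.p6), and capitals mark matches to the motifs searched.
Kcnj3, chr2:55435720-55435969, plus strand: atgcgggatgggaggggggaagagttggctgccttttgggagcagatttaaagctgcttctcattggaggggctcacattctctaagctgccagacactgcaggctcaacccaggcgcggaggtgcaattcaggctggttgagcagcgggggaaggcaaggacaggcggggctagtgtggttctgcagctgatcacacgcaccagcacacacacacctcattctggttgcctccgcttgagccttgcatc
Kcnj9, chr1:172329323-172329572, minus strand: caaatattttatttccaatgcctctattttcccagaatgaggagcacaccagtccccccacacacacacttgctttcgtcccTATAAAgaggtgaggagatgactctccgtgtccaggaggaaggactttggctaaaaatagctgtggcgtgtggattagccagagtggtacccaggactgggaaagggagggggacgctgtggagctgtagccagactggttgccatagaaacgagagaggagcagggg
Kcnd2, chr6:21215096-21215345, plus strand: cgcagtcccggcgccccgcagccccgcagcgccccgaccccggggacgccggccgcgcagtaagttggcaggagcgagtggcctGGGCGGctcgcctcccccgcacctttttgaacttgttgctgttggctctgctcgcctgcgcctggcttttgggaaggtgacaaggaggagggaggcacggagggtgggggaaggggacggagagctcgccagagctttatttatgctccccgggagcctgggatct
Kcnh2, chr5:24329592-24329841, minus strand: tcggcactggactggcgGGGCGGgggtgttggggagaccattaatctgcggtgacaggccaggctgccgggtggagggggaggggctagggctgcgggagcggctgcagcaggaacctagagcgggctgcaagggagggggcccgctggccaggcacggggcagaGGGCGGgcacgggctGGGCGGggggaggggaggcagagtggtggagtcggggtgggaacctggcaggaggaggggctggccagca
The motifs were read on both strands. They were the Sp1-type box GGGCGG, the core promoter element TATAAA, the core TGACG of the cyclic AMP response element, the E-box CACGTG and the glucocorticoid receptor half-site AGAACA. The Kcnj9 window held 1 TATAAA, the Kcnd2 window 1 GGGCGG and the Kcnh2 window 3 GGGCGG, none of them overlapping, while the Kcnj3 window held no match. GC content of these windows was 58.4% for Kcnj3, 52.0% for Kcnj9, 68.8% for Kcnd2 and 73.6% for Kcnh2. Windows were found for 52 of the 74 members (75 windows). Their median GC content was 60.0%, against 52.4% over all 32851 windows of the table. GGGCGG stood in 45.3% of member windows and 32.7% of all windows, TATAAA in 4.0% and 12.4%, TGACG in 14.7% and 17.8%, CACGTG in 5.3% and 6.0%, and AGAACA in 13.3% and 16.1%. A match describes the letters of the window only.

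Levels were compared between genes as mean CPM per kilobase of the longest transcript, the scale on which the longest messages are not favoured. Kcnab2, a Kv beta subunit, was highest at 106, followed by the KChIP gene Kcnip4 at 65.9, the GIRK subunit Kcnj6 at 65.1 and the axonal Kv1 channel gene Kcna1 at 50.3. Kcnj3 stood at 36.1, the BK channel gene Kcnma1 at 35.3 and the KChIP gene Kcnip3 at 32.8. At the other end stood Kcnh4 at 0.487, Kcnk6 at 0.489 and Kcna5 at 0.509. By family, the Kir genes (12 members) held 19.8% of the summed level, the Kv beta subunits 12.6%, the KChIPs 12.1%, Kv1 10.1%, Kv3 8.31% and Kv7 8.16%. The 9 silent Kv subunits, which form channels only with Kv2 partners, held 5.87%, the 9 K2P genes 5.94%, the BK genes 5.29%, Kv4 3.99% and the SK genes 1.68%. Accessory genes thus stood among the most abundant members, with Kcnab2 above every pore-forming gene on this scale and Kcnip4 level with Kcnj6. The order depends on the scale, which lowers genes whose longest transcript is long. In CPM, Kcnma1, with a longest transcript of 12.1 kb, stood at 427 beside 414 for Kcnab2.

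**Figure D1:**
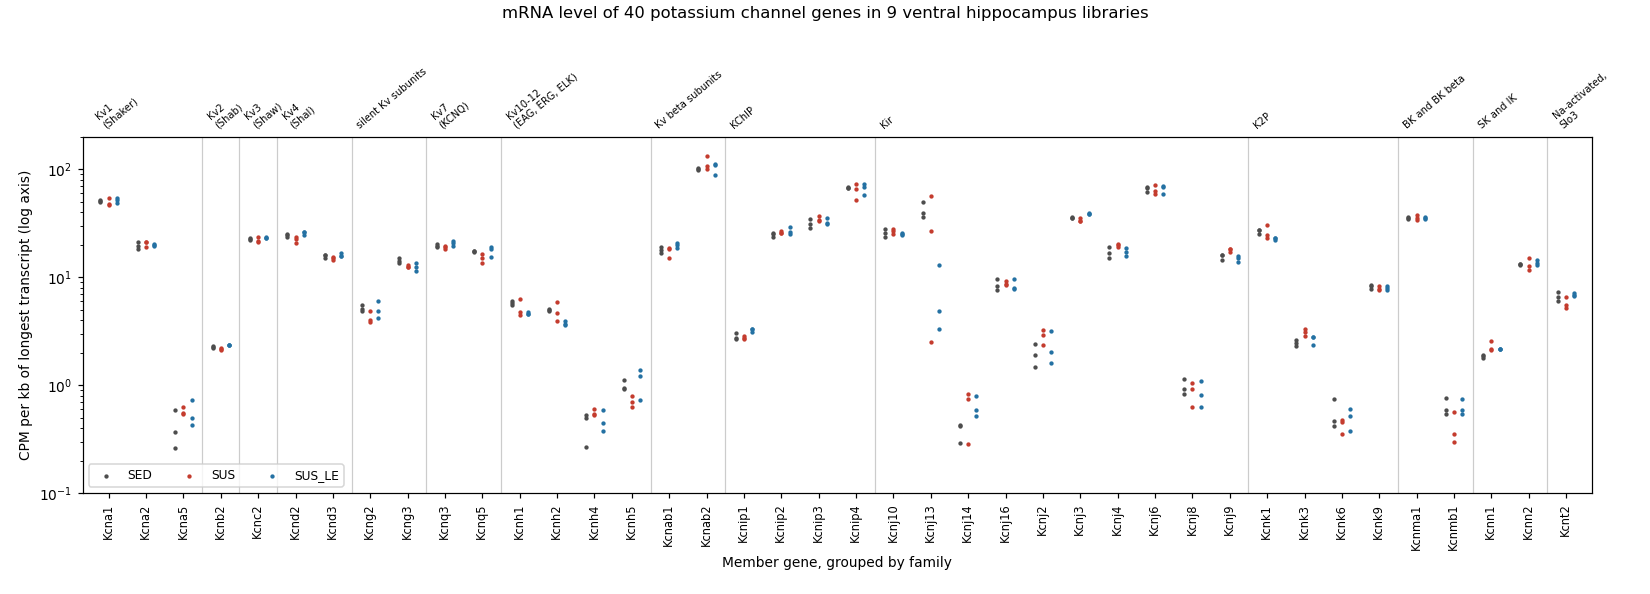
Level of 40 of the members in the 9 libraries, in CPM per kilobase of longest transcript on a log axis, grouped by family, with 1 point per library coloured by group. Levels run from below 1 to about Kcnab2's mean of 106, and for most of them the 9 points lie close together, Kcnj13 being spread the widest.

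Most members varied little over the 9 mice, whatever their group. On CPM, the coefficient of variation (SD over mean) was under 10% for 35 members, from 10% to under 20% for 25, and 20% or more for 14, with a median of 10.5%. Spread followed depth, with a median of 8.36% among the 55 members at 10 CPM or more and 21.3% among the 19 below. The steadiest was Kcnma1, the pore of the BK channel, at 3.05%, with 406 to 452 CPM over the 9 libraries. Kcnc2 (3.82%), Kcnk9 (3.89%) and the delayed rectifier gene Kcnb2 (4.0%) were close to it. Among members at 10 CPM or more, 2 passed 20%, the inward rectifier genes Kcnj13 (80.3%) and Kcnj2 (28.0%).

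No member passed an adjusted p of 0.05 in any comparison (edgeR quasi-likelihood test, Benjamini-Hochberg over the 16106 genes tested, among them all 74 members). The share of all tested genes that passed was 0% in each comparison too, so the values below are differences that missed the threshold. The smallest adjusted p of a member was 0.231 between SUS and SED, 0.102 between SUS_LE and SUS and 0.456 between SUS_LE and SED. limma voom called 0 members in each comparison. DESeq2 called 0 members in both comparisons with SED, and 2 of the 39 to which it gave an adjusted p between SUS_LE and SUS, where it called 3.28% of all genes with one. The comparisons share libraries (SUS enters the first and second, SED the first and last), so their values are given side by side and are not independent of each other.

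Between stressed and sedentary mice, which asks what the channel genes' levels were in stress-susceptible animals, 11 of 74 members (14.9%) had an unadjusted p under 0.05, beside 13.1% of all genes tested. Of these, 4 were higher in SUS (Kcnj9, Kcnj4, Kcnk3 and Kcnn1), where 6.83% of all genes were, and 7 lower (Kcnq5, Kcng3, Kcnd2, Kcnmb1, Kcnt2, Kcng2 and Kcnh5), where 6.26% of all genes were. The groups did not overlap for 12 members (16.2%), beside 18.3% of all genes. Values above 0 on the log2 scale were found for 39 of 74 members, beside 49.9% of all genes, and the members' median was 0.0038, beside -0.00039 over all genes. The member counts thus lay near the background. They also moved with single libraries, as did the shares of all genes. The 4 higher members were 2 without SED 1 or SUS 1, 7 without SED 2 and 9 without SUS 3. In those 4 fits, 4.47%, 4.52%, 6.2% and 7.59% of all genes were higher at that p. The 7 lower ones were 3 without SED 1, 2 without SED 3 and 4 without SUS 1. There, 4.58%, 4.24% and 4.59% of all genes were lower at that p.

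Kcnj9, which encodes the GIRK3 subunit, measured 55.7, 62.3 and 62.4 CPM in the SED mice, 70.9, 66.3 and 69.8 in SUS, and 58.4, 53.3 and 60.2 in SUS_LE. All 3 SUS libraries lay above the other 6. SUS over SED gave a log2 fold change of 0.19 (SE 0.07, edgeR adjusted p = 0.231). Kcnj4, a Kir2 rectifier gene of forebrain neurons, stood at 32.2, 40.5 and 35.7 CPM in SED, 42.9, 41.2 and 44.0 in SUS, and 40.3, 33.4 and 36.6 in SUS_LE, again with the SUS libraries above the rest. Its log2 fold change of SUS over SED was 0.23 (SE 0.08, edgeR adjusted p = 0.248). Kcnk3, the acid-sensitive leak channel TASK1, ran from 8.75 to 9.94 CPM in SED and from 10.8 to 12.7 in SUS (0.32 on the log2 scale, SE 0.12, edgeR adjusted p = 0.276). Kcnn1, a small-conductance calcium-activated channel gene, ran from 7.2 to 7.72 CPM in SED and from 8.58 to 10.4 in SUS (0.30, SE 0.13, edgeR adjusted p = 0.334). Both had SUS libraries above all SED libraries. Kcnj4 was at 0.16 without SED 1, and Kcnn1 at 0.20 without SUS 1.

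Of the 7 lower members, 5 were Kv or silent Kv subunit genes, beside the sodium-activated Kcnt2 and the BK beta subunit gene Kcnmb1. Kcnq5, an M-current subunit, stood at 122, 120 and 121 CPM in SED, 94.5, 113 and 104 in SUS, and 128, 132 and 106 in SUS_LE. SUS libraries lay below all SED libraries and SUS_LE 3 lay within the SUS range (SUS over SED was -0.23 on the log2 scale, SE 0.08, edgeR adjusted p = 0.231). Kcnd2, the main Kv4 gene of the A-type current, stood at 127, 122 and 129 CPM in SED, 107, 121 and 117 in SUS, and 135, 134 and 127 in SUS_LE. Its SUS libraries were the 3 lowest of 9 (log2 fold change -0.14, SE 0.05, edgeR adjusted p = 0.285). Kcng3, a silent subunit, stood at 50.7, 45.7 and 47.4 CPM in SED and 43.2, 41.2 and 41.2 in SUS (-0.20, SE 0.07, edgeR adjusted p = 0.245), with no overlap. The sodium-activated channel gene Kcnt2 stood at 42.5, 34.8 and 38.1 CPM in SED and 31.8, 38.2 and 29.7 in SUS, which overlap (-0.22, SE 0.09, edgeR adjusted p = 0.337). Kcng2 (-0.29, SE 0.13), the EAG channel gene Kcnh5 (-0.50, SE 0.23) and Kcnmb1 (-0.65, SE 0.28) had larger fold changes at SUS levels no higher than 13.6 CPM in any library and edgeR adjusted p-values from 0.326 to 0.365. Single libraries moved some of these values by over 1.5 times: Kcnt2 was -0.14 without SED 1 or SUS 3 and -0.34 without SUS 2, and Kcnmb1 was -0.97 without SUS 2.

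**Figure D2:**
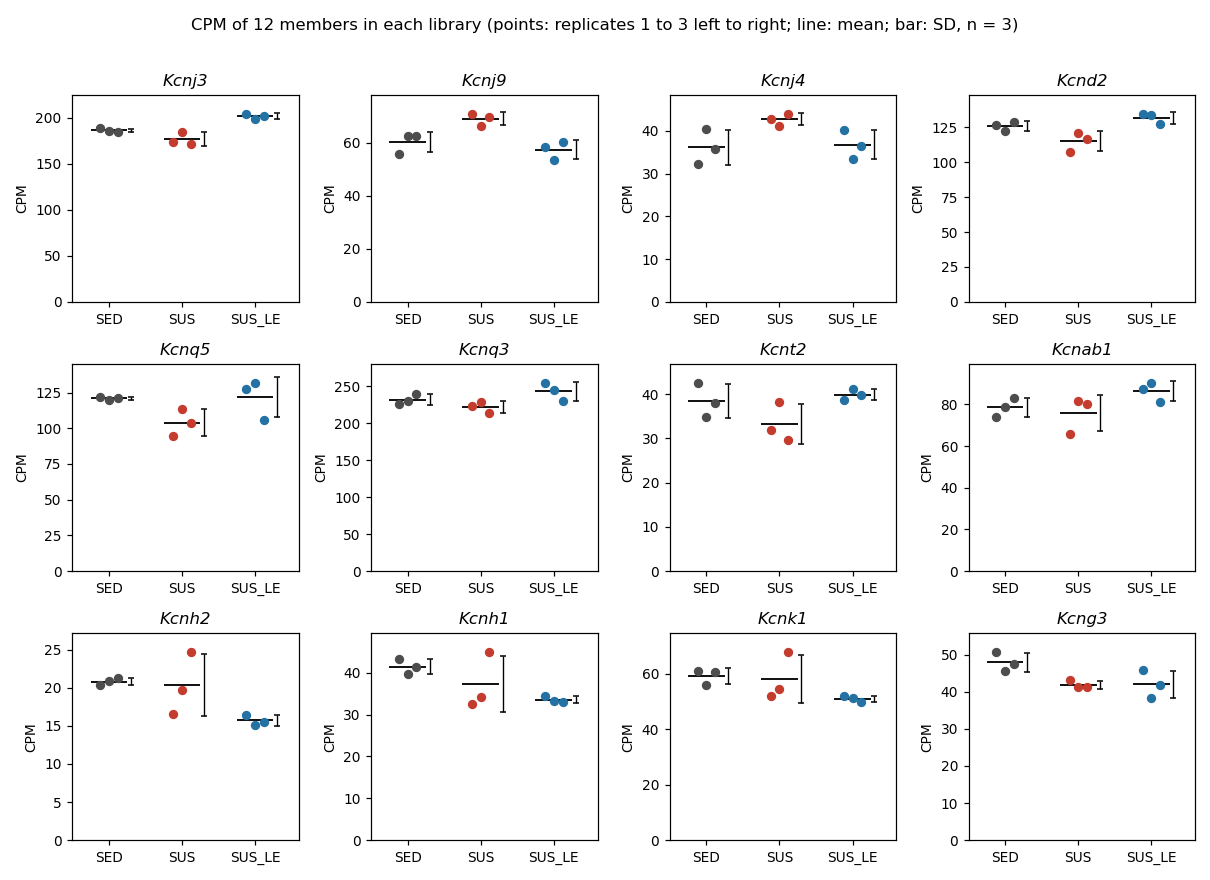
CPM of 12 members in each library by group, with the replicates from left to right, the mean as a line and the SD as a bar (n = 3 mice). Kcnj9 and Kcnj4 sit highest and Kcnd2 lowest in the SUS libraries, Kcnj3 is highest in all 3 SUS_LE libraries, and Kcnh2, Kcnh1 and Kcnk1 have their highest point in SUS 3.

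Exercised stressed mice were next set beside sedentary stressed mice. Their time since restraint is not given, so it cannot be told apart from running. Between these groups, 15 of 74 members (20.3%) had an unadjusted p under 0.05, beside 13.7% of all genes. Of these, 12 (16.2% of members) were higher in SUS_LE, beside 7.2% of all genes, and 3 (4.05%) were lower, beside 6.49%. The higher 12 comprised Kv channel genes (Kcnd2, Kcnd3, Kcnb2, Kcnq3, Kcnq5 and Kcnh5), the silent subunit Kcng2, the accessory genes Kcnab1, Kcnip1 and Kcnmb1, the GIRK gene Kcnj3 and the sodium-activated Kcnt2. The lower 3 were Kcnj9, Kcnj4 and Kcnh2. The groups did not overlap for 12 members (16.2%), beside 17% of all genes, and 40 of 74 members had a log2 fold change above 0, beside 50.3%. The members' median was 0.02, beside 0.0011 over all genes. Without SUS 3 the higher members were 7, beside 6.52% of all genes, and without SUS 1 the lower ones were 6, beside 6.56%. Without SUS 1, edgeR called 1 member (Kcnh2, adjusted p = 0.0493), and without SUS 2, the library low in smooth muscle markers, it called 4 (Kcnj3, Kcnd2, Kcnt2 and Kcnq5, adjusted p from 0.0311 to 0.0494), as it called 0.508% and 1.12% of all genes.

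Kcnj3, which encodes the GIRK1 subunit, had the smallest p of any member. It stood at 188, 186 and 184 CPM in SED, 174, 185 and 171 in SUS, and 204, 198 and 202 in SUS_LE. The 3 SUS_LE libraries lay above the other 6, and those of SED and SUS overlapped. SUS_LE over SUS gave a log2 fold change of 0.22 (SE 0.05, edgeR adjusted p = 0.102), and DESeq2 gave an adjusted p of 0.0105. Kcnd2 followed with a log2 fold change of 0.23 (SE 0.05, edgeR adjusted p = 0.116, DESeq2 0.0242), its lowest SUS_LE library at 127 CPM being above its highest SUS library at 121. Kcnj9 had the smallest p among lower values, with a log2 fold change of -0.24 (SE 0.07, edgeR adjusted p = 0.144) and no overlap between SUS_LE and SUS.

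Kcnj3 and Kcnj9 encode subunits of the same family of heteromeric channels, so their ratio was taken in each library, after the values had been seen and as a description only. Counts of Kcnj3 per count of Kcnj9 were 3.38, 2.98 and 2.95 in SED, 2.45, 2.79 and 2.45 in SUS, and 3.49, 3.73 and 3.36 in SUS_LE. Means were 3.10 ± 0.238, 2.56 ± 0.194 and 3.53 ± 0.186 (SD, n = 3 each), and SUS overlapped neither of the other groups. SUS_LE 3, at 3.36, lay just below SED 1, at 3.38. The ratio pairs genes already seen to have values in opposite directions, with transcript GC content of 43.9% for Kcnj3 and 57.2% for Kcnj9. Counts of Kcnj6 per count of Kcnj9 ran from 3.53 to 4.36 in SED, 3.03 to 3.66 in SUS and 3.55 to 4.70 in SUS_LE. Those of Kcnj3 per count of Kcnj6 ran from 0.737 to 0.843, 0.670 to 0.811 and 0.792 to 0.945. Both of these ratios overlapped between groups. Kcnj6, the GIRK2 gene, stood at 238 ± 15.6, 233 ± 24.2 and 237 ± 20.2 CPM in SED, SUS and SUS_LE, with overlapping groups. Kcnj5, the remaining GIRK gene, was below the level threshold, with a mean of 0.281 CPM.

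Other members with higher values in exercised mice included the M-current genes Kcnq5 and Kcnq3. Kcnq5 had a log2 fold change of 0.26 (SE 0.08, edgeR adjusted p = 0.173), with SUS_LE 3 at 106 CPM below SUS 2 at 113. Kcnq3 stood at 226, 230 and 240 CPM in SED, 224, 229 and 214 in SUS, and 255, 245 and 230 in SUS_LE, and SUS_LE lay just above SUS (0.16, SE 0.05, edgeR adjusted p = 0.182). Kcnt2 stood at 38.7, 41.1 and 39.8 CPM in SUS_LE, above all 3 SUS libraries (0.29, SE 0.09, edgeR adjusted p = 0.187). Kcnh5, at low levels, had the largest value above 0 of any member between SUS_LE and SUS: it stood at 2.55, 2.84 and 3.22 CPM in SUS and at 5.65, 4.88 and 2.93 in SUS_LE, which overlap (0.67, SE 0.23, edgeR adjusted p = 0.195). Kcnab1, a Kv beta subunit gene, stood at 74, 78.7 and 83.1 CPM in SED, 65.7, 81.8 and 80.2 in SUS, and 87.6, 90.3 and 81.3 in SUS_LE. The log2 fold change over SUS was 0.22 (SE 0.07, edgeR adjusted p = 0.21), and 0.13 without SUS 1. In CPM, SUS_LE 3 lay below SUS 2 for this gene, while on the scale of the fit, which applies factors for library composition, the groups did not overlap. Kcnip1, a KChIP gene, stood at 11.7, 11.2 and 10.8 CPM in SUS and at 13.6, 13.5 and 12.7 in SUS_LE (0.27, SE 0.11, edgeR adjusted p = 0.286).

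Kcnh2, the ERG1 channel gene, was the remaining member with lower values in exercised mice beside Kcnj9 and Kcnj4 (log2 fold change of Kcnj4 -0.19, SE 0.08, edgeR adjusted p = 0.339, and -0.12 without SUS_LE 2). It stood at 20.3, 20.8 and 21.2 CPM in SED, 16.6, 19.7 and 24.7 in SUS, and 16.5, 15.1 and 15.5 in SUS_LE. SUS_LE lay below both other groups and close to SUS 1, with SUS spread widest. The log2 fold change was -0.34 against SUS (SE 0.11, edgeR adjusted p = 0.188), and -0.20 without SUS 3.

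**Figure D3:**
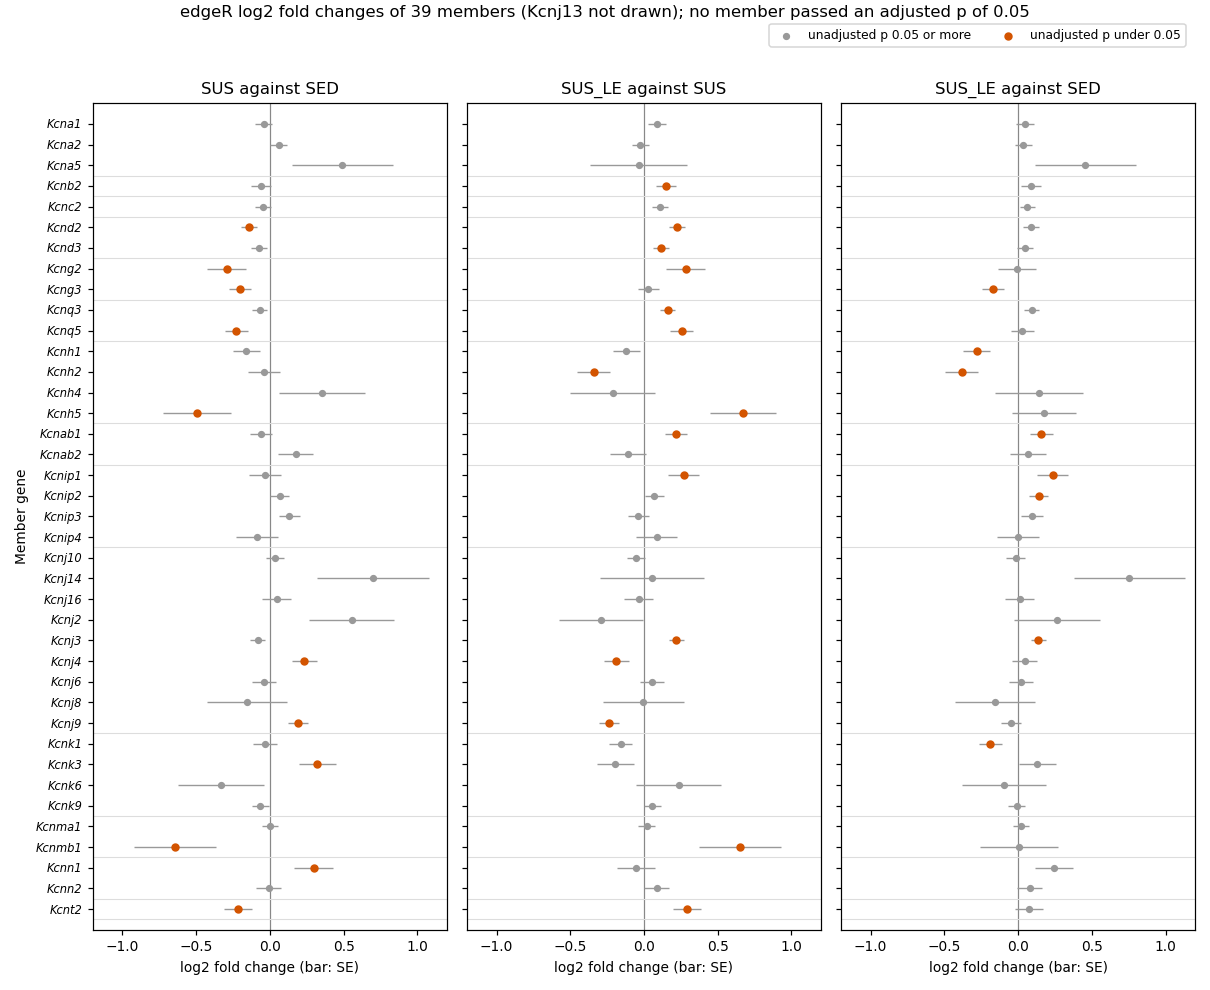
edgeR log2 fold changes with SE of 39 members in the 3 comparisons, by family (Kcnj13 lies outside the axis and is described in the text). Orange points have an unadjusted p under 0.05, which holds for 11, 15 and 9 members counting Kcnj13, and no member passed the adjusted threshold.

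Between exercised stressed mice and sedentary controls, which asks how far the levels after running stood from those of unstressed mice, 9 of 74 members (12.2%) had an unadjusted p under 0.05, beside 6.64% of all genes. Higher were 4 (Kcnj3, Kcnip1, Kcnip2 and Kcnab1), where 2.79% of all genes were, and lower were 5 (Kcnh2, Kcnh1, Kcnk1, Kcng3 and Kcnj13), where 3.86% were. The groups did not overlap for 12 members (16.2%), the same share as over all genes (16.2%). Log2 values above 0 were found for 49 of 74 members, beside 52.9% of all genes, and the members' median was 0.05, beside 0.0085. The higher members were 2 without any 1 of SED 1, SUS 2, SUS_LE 1 or SUS_LE 2. In those fits 2.18%, 2.62%, 2.33% and 2.64% of all genes were higher at that p. The lower members were 2 without SED 1, SED 3 or SUS_LE 3 and 3 without SUS_LE 2. There, 2.77%, 3.03%, 2.98% and 3.64% of all genes were lower at that p.

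Kcnh2 and Kcnh1, which encode ERG1 and EAG1 channels, had the smallest p-values here. Kcnh2 had a log2 fold change of -0.38 (SE 0.11, edgeR adjusted p = 0.456). Kcnh1 stood at 43.3, 39.7 and 41.3 CPM in SED, 32.6, 34.2 and 44.9 in SUS, and 34.5, 33.1 and 33 in SUS_LE, so that SUS_LE lay below all SED libraries (-0.28, SE 0.09, edgeR adjusted p = 0.57). Kcnk1, the TWIK1 leak channel gene, stood at 60.9, 55.9 and 60.5 CPM in SED, 51.8, 54.6 and 67.8 in SUS, and 52, 51.3 and 49.8 in SUS_LE (-0.19, SE 0.08, edgeR adjusted p = 0.685). In all 3 genes SUS 3, the library highest in choroid plexus markers, was the highest of 9, and SUS 1, the lowest in them, was the lowest SUS library. With the choroid plexus score in the model the SUS_LE over SED values were -0.18 for Kcnh2, -0.13 for Kcnh1 and -0.054 for Kcnk1. Without the 3 libraries lowest in Ttr, which leaves SUS_LE with 1 library, they were -0.44, -0.30 and -0.18. The part of choroid plexus in these values was not tested. When the fit held only SED and SUS_LE, edgeR called Kcnh2 and Kcnh1 (both adjusted p = 0.0259), as it called 1.52% of all genes.

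Higher against SED were Kcnj3 (log2 fold change 0.14, SE 0.05, edgeR adjusted p = 0.633), Kcnip1 (0.23, SE 0.11, 0.742), Kcnip2 (0.14, SE 0.06, 0.744) and Kcnab1 (0.16, SE 0.07, 0.747). Kcnip2 is a KChIP that binds Kv4 channels, and it ran from 72.8 to 79.9 CPM in SED and from 77.5 to 91 in SUS_LE, which overlap. Its value was 0.07 without SUS_LE 2. Kcng3 had a value of -0.17 (SE 0.07, edgeR adjusted p = 0.699), with SUS_LE libraries at 45.8, 38.2 and 41.8 CPM and overlap with SED, and it was -0.11 without SUS_LE 2.

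Kcnj13, which encodes Kir7.1, a rectifier of ion-transporting epithelia such as the choroid plexus, had the largest fold changes of any member in both comparisons of SUS_LE. It stood at 62.9, 49.3 and 46.1 CPM in SED, 3.17, 34.3 and 71.2 in SUS, and 4.22, 16.4 and 6.2 in SUS_LE. All 3 SUS_LE libraries lay below SED, and SUS spanned the whole range. The log2 fold change was -2.52 for SUS_LE over SED (SE 0.99, edgeR adjusted p = 0.742), -1.97 for SUS_LE over SUS (SE 1.0, 0.453) and -0.56 for SUS over SED (SE 0.86, 0.838). Without SUS 3 the values against SUS and of SUS over SED were -1.04 and -1.5, and without SUS 1 the latter was -0.016. Ttr, the transthyretin gene and the most abundant choroid plexus marker, stood at 4331, 3548 and 2937 CPM in SED, 27.4, 2652 and 6212 in SUS, and 82.7, 1491 and 58.3 in SUS_LE. The 3 libraries lowest in Kcnj13 were the 3 lowest in Ttr, and SUS 3 was highest in both. All 10 choroid plexus markers were found, none at 0 in every library. With the choroid plexus score in the model the SUS_LE over SED value of Kcnj13 was -0.43. Without the 3 libraries lowest in Ttr, which leaves SUS_LE with 1 library, it was -1.66.

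**Figure D4:**
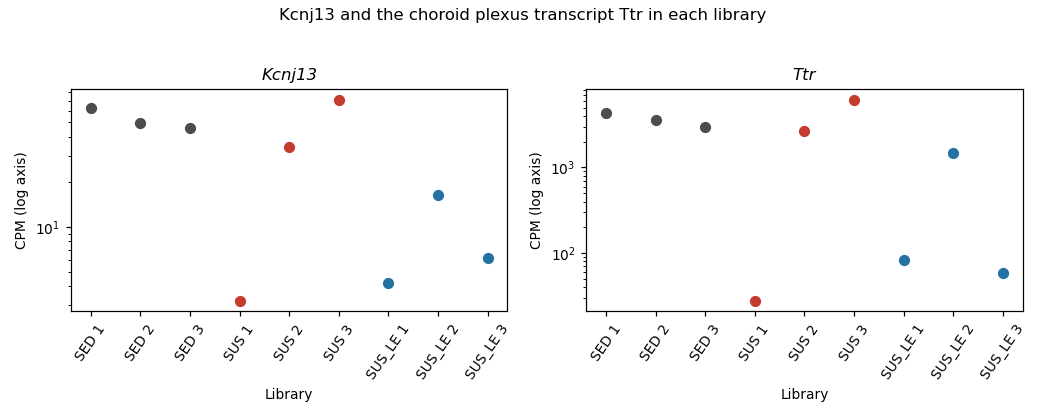
CPM of Kcnj13 and of the choroid plexus transcript Ttr in each of the 9 libraries, on log axes, coloured by group. Both are lowest in SUS 1, SUS_LE 1 and SUS_LE 3 and highest in SUS 3, where they reach 71.2 and 6212 CPM.

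Several members with a defined cellular role stood at like values in the 3 groups. Astrocytic Kcnj10 was at 139 ± 11.9, 143 ± 6.98 and 136 ± 2.28 CPM in SED, SUS and SUS_LE, and its partner Kcnj16 at 31.4 ± 3.73, 32.6 ± 1.48 and 31.2 ± 3.9 (SD, n = 3 each). Together they form the main astrocytic rectifier. The vascular gene Kcnj8, part of the pericyte and smooth muscle KATP channel, was low, at 2.43 ± 0.401, 2.2 ± 0.553 and 2.15 ± 0.599 CPM. Of the axonal Kv1 genes, Kcna1 was at 203 ± 3.64, 198 ± 16.7 and 207 ± 10.3 CPM and Kcna2 at 227 ± 15.8, 237 ± 14.3 and 229 ± 5.0. Both lay within the spread of the mice. Kcnma1 was at 427 ± 8.88, 429 ± 22.9 and 426 ± 8.37 CPM. The SK gene Kcnn2 was at 48.2 ± 0.336, 48.1 ± 6.53 and 50.0 ± 2.6 CPM, and Kcnip4 at 162 ± 3.33, 153 ± 26.1 and 159 ± 18.3. Each of these genes had overlapping groups, log2 fold changes between -0.16 and 0.09, and edgeR adjusted p-values of at least 0.529. Some lay farther from 0 in other settings. With GC and length trends removed, SUS over SED was 0.18 for Kcna2 (edgeR adjusted p = 0.488) and 0.12 for Kcnma1 (0.574). With the choroid plexus score in the model, Kcnip4 was -0.23 in SUS over SED (edgeR adjusted p = 0.297) and -0.28 in SUS_LE over SED (0.663). Standard errors ran from 0.05 for Kcnma1 to 0.27 for Kcnj8, so small differences were not resolved, least of all for Kcnj8.

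In the 2 comparisons with SUS, the members' fold changes followed the base composition of their transcripts, as did those of all genes. Across the 74 members, Spearman's rho of the SUS over SED log2 fold change with GC content of the longest transcript was 0.411, and over 14913 tested genes with a matched transcript it was 0.352. For SUS_LE over SUS it was -0.424 for members and -0.382 for all genes, and for SUS_LE over SED -0.108 and -0.0362. With transcript length, rho was -0.288 for members and -0.232 for all genes in SUS over SED. It was 0.299 and 0.127 in SUS_LE over SUS, and 0.0312 and -0.132 in SUS_LE over SED. The removal of trends described below takes GC content and length together, so their parts are not separated. Genes are not independent replicates, all values of a comparison come from the same libraries, and the first and second share the SUS libraries. In the third of members with the lowest GC content (25 genes, 36.6% to 47.7%) the median log2 fold change was -0.05 for SUS over SED and 0.11 for SUS_LE over SUS. In the third with the highest (25 genes, 55.2% to 69.4%) it was 0.15 and -0.11. Kcnj3, Kcnd2 and Kcnt2 belong to the first of these, and Kcnj9, Kcnh2 and Kcnk3 to the last. Kcng2 also belongs to the last, but went against the trend, being lower in SUS than in SED and higher in SUS_LE than in SUS. With trends in GC content and length removed per library, the SUS_LE over SUS value was 0.16 for Kcnj3 (edgeR adjusted p = 0.381), 0.17 for Kcnd2 (0.344) and -0.15 for Kcnj9 (0.526). Of 31 values named here at an unadjusted p under 0.05 over the 3 comparisons, 24 were then nearer 0, 7 of them by over 1.5 times, and 10 no longer had such a p. Beside Kcnj9, the 7 were Kcnq3 (0.096), Kcnt2 (0.17) and Kcnj4 (-0.078) in SUS_LE over SUS, and Kcnd2 (-0.065), Kcnt2 (-0.083) and Kcnj4 (0.14) in SUS over SED. Values that were then farther from 0 included those of SUS over SED for Kcng2 (-0.38, edgeR adjusted p = 0.457) and Kcng3 (-0.22, 0.456). The share of members with an unadjusted p under 0.05 was then 9.46%, 13.5% and 14.9% in the 3 comparisons, beside 8.79%, 8.78% and 7.14% of all genes.

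**Figure D5:**
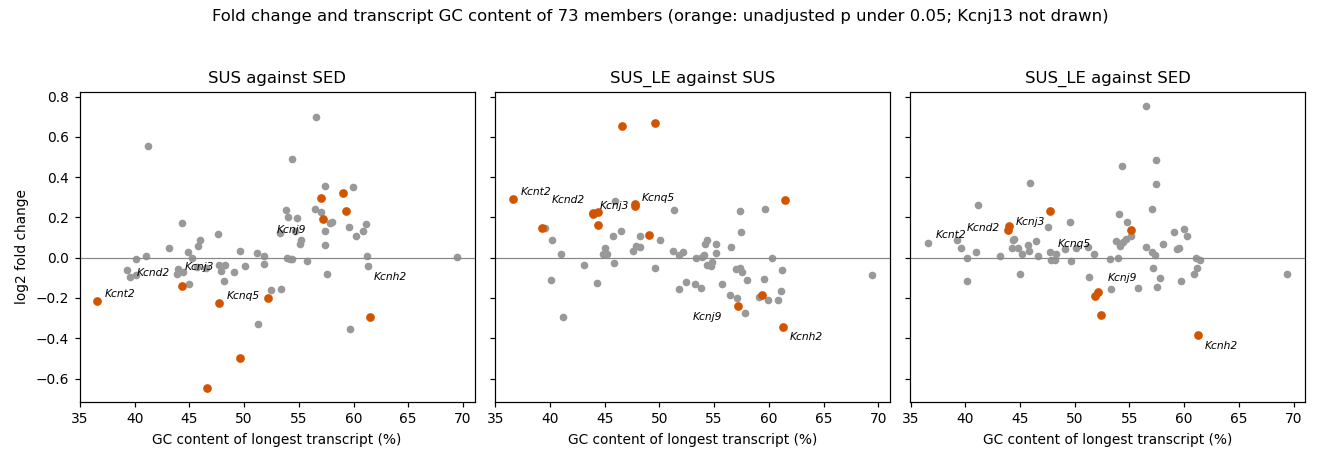
Log2 fold change against GC content of the longest transcript (%) for 73 members in the 3 comparisons, with unadjusted p under 0.05 in orange. The points slope upward for SUS over SED (rho 0.411 with Kcnj13 included), downward for SUS_LE over SUS (rho -0.424), and show little slope for SUS_LE over SED (rho -0.108).

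Markers of cell types also differed between groups. Summed pyramidal cell markers ran from 1275 to 1283 CPM in SED, 1366 to 1520 in SUS and 1238 to 1362 in SUS_LE, and 5 of 8 were higher in SUS than in SED. Most of that sum was Slc17a7, at 784 CPM in SED 1. Summed interneuron markers ran from 638 to 668, 694 to 704 and 668 to 711 CPM, with 7 of 8 higher in SUS than in SED, 4 of them at an unadjusted p under 0.05. Summed astrocyte markers ran from 4905 to 5173 CPM in SED, 4580 to 4630 in SUS and 4866 to 5060 in SUS_LE. Summed oligodendrocyte markers ran from 3014 to 3225, 2591 to 2891 and 2548 to 3204 CPM, and summed dentate granule cell markers from 206 to 258, 174 to 217 and 202 to 249 CPM. The astrocyte sum was lowest in the 3 SUS libraries, and most of it was Slc1a2. Of the 7 astrocyte markers, 5 were lower in SUS than in SED, 3 of them at an unadjusted p under 0.05, while Gfap and Aldh1l1 were higher. All 8 oligodendrocyte markers were lower, 6 at such a p. Among further lists, 5 of 5 general neuron, 6 of 7 striatum and 6 of 7 cortex and amygdala markers were higher in SUS than in SED. At such a p were 2, 1 and 0 of these. Lower were 6 of 6 dentate granule cell markers and 7 of 8 pericyte and smooth muscle markers, 1 of each at such a p. Of the 4 thalamus markers, 2 were higher and 2 lower. Lower were also 5 of 6 endothelium and 6 of 7 meningeal fibroblast markers, 0 at such a p. Higher were 4 of 6 microglia and 3 of 5 oligodendrocyte precursor markers, 0 at such a p, while 1 lower marker of each list was. Over all genes, 6.83% were higher and 6.26% lower in SUS than in SED at such a p. In SUS_LE over SUS, 6 of 7 astrocyte, 7 of 8 oligodendrocyte, 6 of 6 dentate granule cell and 5 of 6 endothelium markers were higher. At such a p were 4, 2, 1 and 4 of these, beside 7.2% of all genes. Lower there were 6 of 8 interneuron and 5 of 8 pyramidal cell markers, 1 and 0 at such a p, beside 6.49%. SUS is also the group in which Kcnd2, Kcnq5 and Kcnt2 had their lowest means and Kcnj9 and Kcnj4 their highest. The part of these cell types in the channel results was not tested.

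Channel partners, HCN channels, and potassium pumps and cotransporters were examined as neighbours of the members (43 genes listed, 41 tested). None passed an adjusted p of 0.05 in edgeR, and 8, 10 and 2 had an unadjusted p under 0.05 in SUS over SED, SUS_LE over SUS and SUS_LE over SED, where 13.1%, 13.7% and 6.64% of all genes did. Of the 20 partner genes tested, such as those for auxiliary proteins that hold Kv channels in place, 3 were higher and 1 lower in SUS than in SED at that level, 2 and 2 in SUS_LE than in SUS, and 0 and 0 in SUS_LE than in SED. Of the 5 HCN genes and their partner, 1 was higher in SUS than in SED, 1 lower in SUS_LE than in SUS, and none differed in the last. Of the 16 pump and cotransporter genes, 3 were higher and 0 lower, 2 higher and 3 lower, and 0 higher and 2 lower.

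Hcn2 and Amigo1 were among the neighbours with the smallest p-values between SUS and SED. Hcn2, a hyperpolarisation-activated channel gene, was at 59.3 ± 4.39 and 69.4 ± 2.86 CPM (SD, n = 3 each), a log2 fold change of 0.22 (edgeR adjusted p = 0.193), and Amigo1, which encodes a Kv2 auxiliary protein, at 64.9 ± 2.59 and 74.5 ± 4.58 CPM (0.19, adjusted p = 0.215). Between SUS_LE and SUS, Amigo1 had a log2 fold change of -0.20 (edgeR adjusted p = 0.174) and the chloride cotransporter gene Slc12a4 of -0.42 (0.191). Between SUS_LE and SED the 3 smallest p-values were those of Slc12a4, the pump regulator gene Fxyd1 and Vapa. The product of Vapa anchors Kv2 clusters to the endoplasmic reticulum. Slc12a4 was at 17 ± 1.31 CPM in SED, 14.7 ± 3.39 in SUS and 10.7 ± 1.15 in SUS_LE (SUS_LE over SED -0.64, edgeR adjusted p = 0.334). Fxyd1 was at 31.7 ± 1.56, 30.1 ± 8.03 and 20.6 ± 2.66 CPM (-0.60, 0.598), and Vapa had a value of 0.13 (0.753). Both Slc12a4 and Fxyd1 were spread widest in SUS, and the part of choroid plexus in their values was not tested.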

How the data were processed

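Total RNA of 9 ventral hippocampus samples was sequenced. Deposited files hold raw whole-number counts per gene symbol, made by the authors with fastp, STAR and Salmon on GRCm39, per the submitters' processing notes. Versions, annotation, strand setting, use of molecular identifiers and any rounding of Salmon estimates are not given in the sources used here, so overlapping or antisense genes may share reads. The exercised libraries are numbered 2 to 4 in column headers and, as here, 1 to 3 in the labels. Each library is a separate mouse per the labels, so p-values measure the spread between mice.

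Counts were tested with edgeR 4.0.16 (R 4.3.3; TMM factors, filterByExpr, robust quasi-likelihood fit, group as the only term, all 9 libraries), with Benjamini-Hochberg adjustment over the 16106 genes kept, which hold 99.88% of counts. Fold changes are edgeR's, CPM use library totals, and overlap between groups was read from log2 CPM with TMM factors and a prior count of 2. DESeq2 1.42.0, limma 3.58.1 voom, other scalings, filters, GC and length offsets, a replicate block and left-out libraries were alternatives, and the choroid plexus score, the set without the 3 libraries lowest in Ttr and DESeq2 without independent filtering were chosen after seeing the data. The scripts were tested on simulated data. Transcript length and GC content come from the longest GENCODE M21 transcript (GRCm38), and promoters from RefSeq GRCm38.p6, an older build than that of the counts. The last 30 bases of 54 of the 75 member windows lie in a GENCODE transcript of the gene, and those bases are not printed.

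Some genes are not reported here and are left out of the figures with gene labels, though counts over the members include them. The members and gene lists were chosen with earlier results of these data known. Fold changes with SE and adjusted p are given, per comparison, for up to 8 members with the smallest p in each direction among those under an unadjusted p of 0.05, for further members chosen by role, and fold changes with adjusted p for up to 3 neighbouring genes with the smallest p. The ratio of Kcnj3 to Kcnj9 and the promoters shown were chosen after seeing values.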

Additional observations from a re-analysis of the deposited data

How the results depend on the processing

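Member counts depended on the settings, and no setting gave an adjusted call in more than 6 of the 74 members. Between SUS and SED, 0 members passed an adjusted p of 0.05 in edgeR, and 1 (Kcnq5) passed with no filter on low counts, where 297 of 26992 genes did. Between SUS_LE and SUS, 0 passed in edgeR, 2 with DESeq2 (180 genes), 1 without its independent filtering (73 genes), 6 with no filter (430 genes), 5 with the choroid plexus score in the model (413 genes) and 0 to 4 when 1 library was left out. Between SUS_LE and SED, 0 passed in edgeR, and 2 did with no filter (218 genes) and 2 when the fit held only those groups (239 genes). For any difference among the groups, 0 members passed in edgeR, as did 0 of the 16106 genes tested. With the choroid plexus score 3 members passed. Calls over all genes were not counted for that test, so the 3 have no background beside them. The causes were not tested.

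Members at an unadjusted p under 0.05 moved more. Over the 23 settings, the higher share of all genes ran from 4.47% to 7.59% in SUS over SED, 4.36% to 9.07% in SUS_LE over SUS and 1.53% to 4.2% in SUS_LE over SED, and of members from 1.35% to 14.9%, 9.46% to 18.9% and 1.35% to 8.11%. The lower share of all genes ran from 3.03% to 8.69%, 4.03% to 9.44% and 2.77% to 6.25%, and of members from 2.7% to 10.8%, 1.35% to 8.11% and 2.7% to 8.11%. In SUS over SED, the 4 higher ones were 11 with no filter, 1 with GC and length trends removed, 2 with the choroid plexus score and 2 to 9 when 1 library was left out. The 7 lower ones were 4 with DESeq2 (also 4 without its independent filtering), 3 without the 3 libraries lowest in Ttr and 2 to 8 when 1 library was left out. In SUS_LE over SUS, the 12 higher ones were 7 with DESeq2 under both filters and 7 to 14 with 1 library left out. The 3 lower ones were 5 with library totals only, 1 with GC and length trends removed, 6 on leaving out the 3 libraries lowest in Ttr and 2 to 6 with 1 library left out. In SUS_LE over SED, the 4 higher ones were 1 with DESeq2 under both filters, 2 with DESeq2 size factors in edgeR, 1 with library totals only, 2 without the robust step and 2 to 5 with 1 library left out. The 5 lower ones were 3 with the choroid plexus score, 3 when the 3 libraries lowest in Ttr were left out and 2 to 5 with 1 library left out. The members' median log2 fold change there, 0.05, was 0.0020 with the choroid plexus score. Leaving out the 3 libraries lowest in Ttr leaves SUS_LE with 1 library, which is then assumed to vary like the other groups. With a mean of 0.5 or 2 CPM as the threshold, the number of members was 76 or 70 in place of 74.

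Replicate numbers are not stated to pair the mice. Deviations of libraries with the same number correlated from -0.123 to 0.18 across genes, and those with different numbers from -0.28 to 0.167. With 3 libraries a group the deviations depend on each other, so these values cannot decide whether mice were paired. With the replicate block, 0 members passed an adjusted p of 0.05 in each comparison. The 4 higher members at an unadjusted p under 0.05 in SUS_LE over SED were 2, beside 2.49% of all genes.

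Of 62 fold changes of named members, 23 lay within 1 SE of 0, and 19 of those changed sign under at least 1 of 23 settings, so no direction is claimed for them. Of the 39 farther from 0, 2 changed sign: Kcnq3 in SUS over SED and Kcnn2 in SUS_LE over SUS. Of 31 named values at an unadjusted p under 0.05, 9 moved by over 1.5 times on leaving out 1 library, as given beside each. The log2 fold changes with a changed sign follow by comparison.

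In SUS over SED, Kcnma1 was -0.00115 with DESeq2 under both filters, -0.00114 with DESeq2 size factors in edgeR, -0.00237 with no filter, -0.000565 with only the groups compared, -8.21e-05 with the replicate block, -0.0135 with the choroid plexus score and -0.00575 on leaving out the 3 libraries lowest in Ttr. With GC and length trends removed, Kcnq3 was 0.0556. With the choroid plexus score, Kcnj16 was -0.00778, Kcnk1 0.0307 and Kcnn2 0.00953. Without the 3 libraries lowest in Ttr, Kcnk1 was 0.0364, Kcnj8 0.0295 and Kcnn2 0.0131. With 1 library left out, Kcnj10 ran from -0.0234 to 0.101, Kcnj16 from -0.0268 to 0.143, Kcnk1 from -0.15 to 0.0399, Kcnj8 from -0.303 to 0.0327 and Kcna1 from -0.124 to 0.00522. Kcnma1 ran from -0.0481 to 0.0457, Kcnn2 from -0.132 to 0.0777 and Kcnip4 from -0.203 to 0.0462.

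In SUS_LE over SUS, Kcnma1 was -0.0108 with library totals only. With GC and length trends removed, Kcnj8 was 0.0462, Kcnma1 -0.0419 and Kcnip4 -0.00127. With the choroid plexus score, Kcnj8 was 0.0956 and Kcnip4 -0.0437. Without the 3 libraries lowest in Ttr, Kcna2 was 0.0389. With 1 library left out, Kcnj16 ran from -0.151 to 0.0238, Kcnj8 from -0.225 to 0.172 and Kcna2 from -0.087 to 0.0042. Kcnma1 ran from -0.0338 to 0.0592, Kcnn2 from -0.00646 to 0.202 and Kcnip4 from -0.0548 to 0.201.

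In SUS_LE over SED, Kcnj16 was -0.00868 with limma voom, and Kcnj16 was -0.0119 and Kcnma1 -0.0041 with library totals only. Kcnip4 was 0.00187 with upper quartile factors. With GC and length trends removed, Kcnj10 was 0.0119. With the choroid plexus score, Kcnj16 was -0.10, Kcnj8 0.015, Kcna2 -0.00946 and Kcnma1 -0.00989. Without the 3 libraries lowest in Ttr, Kcnj16 was -0.116. With 1 library left out, Kcnj10 ran from -0.0761 to 0.0489, Kcnj16 from -0.103 to 0.107, Kcnj8 from -0.378 to 0.0187 and Kcna2 from -0.0101 to 0.0917. Kcnma1 ran from -0.00373 to 0.0359 and Kcnip4 from -0.0845 to 0.0867.

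Depth limits the low members most: counts per member and library ran from 11 to 7594, and at 3 mice a group the precision is that of the SEs given.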
